A study of Mus musculus with 12 samples.

Results

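Lysine acetylation is written by acetyltransferases, removed by histone deacetylases and sirtuins, and read by bromodomain proteins. The 48 genes described here encode such writers, erasers and readers together with the scaffold and corepressor proteins that hold them in complexes. They were taken by gene symbol from the count tables of unstimulated and LPS-treated J774A.1 macrophages. All 48 are in both tables, out of 18719 genes listed in either table, and all 48 passed the filter on low counts.

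Acetyl-CoA is the donor for the acetyltransferases, and acetylation of histone tails goes with open chromatin at promoters and enhancers. Class I, IIa, IIb and IV deacetylases use zinc, whereas sirtuins use NAD and so respond to the metabolic state of the cell. In macrophages, p300 and CBP act as coactivators for NF-kB and interferon regulatory factors, BET bromodomain proteins carry acetylated chromatin to transcription elongation, and deacetylases in NCoR, CoREST, NuRD and SIN3 complexes keep inflammatory genes low before stimulation.

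J774A.1 is a mouse macrophage line. WT cells carried a Cas9-GFP vector with no guide RNA, and ACAT1 KO cells carried the same vector with a guide to the fourth exon of Acat1, the mitochondrial acetyl-CoA acetyltransferase of ketone and fatty acid metabolism. According to the study's methods, GFP-positive cells of both kinds were sorted into wells and grown out as clonal populations, so a line can also differ from another by its clonal history. RNA was sequenced from 3 libraries each of WT and ACAT1 KO cells without stimulation and of WT and ACAT1 KO cells after 2 hours with 100 ng/mL LPS, 12 libraries in all. A figure legend of the study gives 3 different lines per genotype for unstimulated cells, whereas a supplementary legend gives 3 mice per group. The labels number the libraries of each group 1 to 3. They do not say which line a library came from, or whether a number marks the same line with and without LPS. The p-values thus measure the spread between these libraries.

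Total counts ran from 56948593 to 167280149 per library. The lowest count in a library was 6 for Hdac7, 14 for Hdac9, 37 for Hdac11 and 48 for Ing4, and at least 272 for each of the other members. WT unstimulated libraries 1 and 2 and ACAT1 KO unstimulated library 2 stood apart, with 0.641, 0.733 and 0.712% of their counts on noncoding genes antisense to other exons against 0.451 to 0.510% in the other 9, and with 3 of the lowest totals. The targeted gene Acat1 read 108, 107 and 80.8 CPM (TMM-scaled counts relative to library size) in unstimulated WT libraries 1 to 3 and 28.9, 25.5 and 26.1 CPM in ACAT1 KO libraries, a log2 difference of -1.87 (SE 0.124, adjusted p = 0.00876), and after LPS it was -2.08 (SE 0.1302, adjusted p = 0.000787). All 8 macrophage markers were listed, with a summed level of 8175 to 10530 CPM without LPS and 7830 to 9311 CPM with it. Most of that sum was Lyz2, and single markers differed between genotypes: Fcgr1 averaged 121 CPM in WT and 74.9 CPM in ACAT1 KO cells without LPS and 114 and 53.6 CPM with it, lower in both states (adjusted p = 0.0124 and 0.00312), and Adgre1 averaged 73.95 and 42.6 CPM without LPS (adjusted p = 0.0368) and 157 and 161.5 CPM with it. Itgam and Spi1 were higher in ACAT1 KO cells with LPS, by 0.48 and 0.26 on the log2 scale (adjusted p = 0.0147 and 0.024). The T cell, B cell and epithelial markers were not listed or were under 1 CPM, and the fibroblast list summed to 1.14 to 1.67 CPM without LPS, 5.58 to 6.56 CPM in WT cells with LPS and 11.4 to 13.1 CPM in ACAT1 KO cells with LPS, nearly all from Pdgfra. The part of these shifts in the results was not tested.

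Levels between genes were compared per kilobase of merged exon in unstimulated WT cells. Hat1, which acetylates newly made histone H4, was highest at 40.7 ± 2.12 CPM per kb (SD, n = 3), followed by the BET reader Brd2 at 39.3 ± 2.77, and these neighbours differed by less than their spread. Hdac1 followed at 33.5 ± 0.713, Kat2a, the GCN5 acetyltransferase of SAGA, at 31.4 ± 0.7797, and Hdac2 at 24.4 ± 0.0528 CPM per kb. The median member lay at 5.62 to 6.76 CPM per kb across the 12 libraries. p300 (Ep300, 6.65 ± 1.27) and CBP (Crebbp, 1.69 ± 0.306 CPM per kb) stood apart by more than their spread.

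The class IIa deacetylases, large signal-regulated corepressors that shuttle between nucleus and cytoplasm, included the lowest members. Hdac5 was at 5.84 ± 0.627 and Hdac4 at 2.24 ± 0.314 CPM per kb, whereas Hdac7 at 0.0621 ± 0.0127 and Hdac9 at 0.06104 ± 0.0283 CPM per kb were the lowest of the 48 and did not differ beyond their spread. Ing4, a histone-reading subunit of the HBO1 complex, came next above them at 0.207 ± 0.0704 CPM per kb, and 1855 of its 5320 exon bases lie under another gene on the same strand, so its reads are uncertain.

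**Figure D1:**
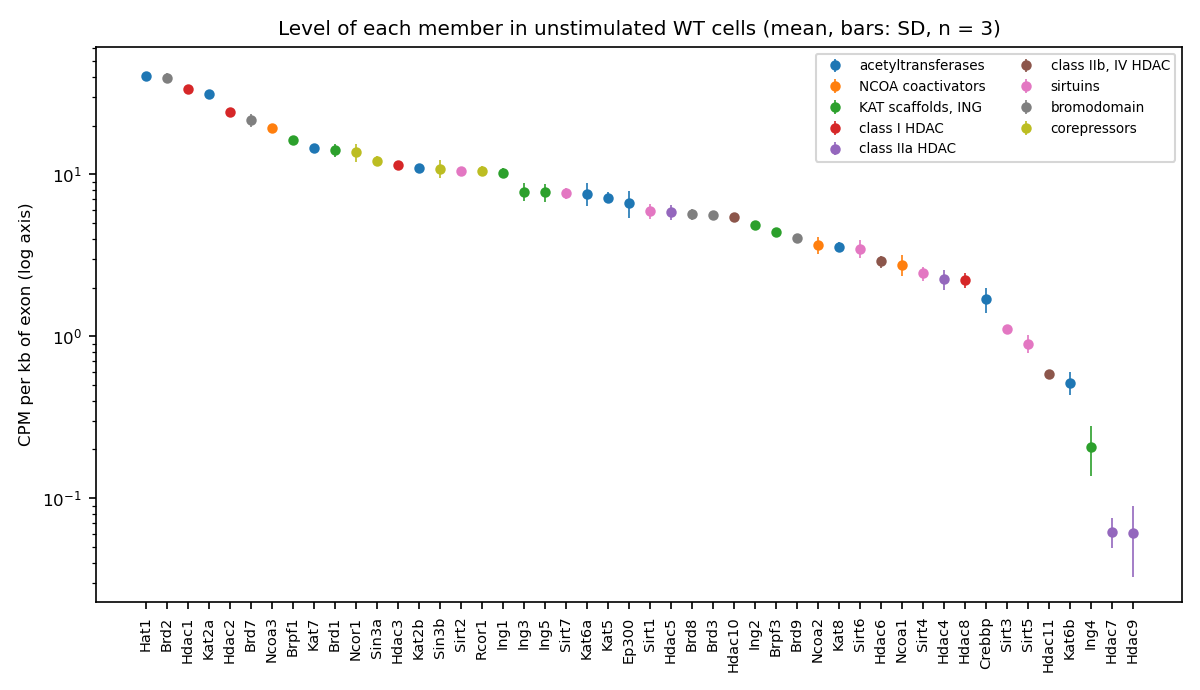
Level of each of the 48 members in unstimulated WT cells, in CPM per kb of merged exon on a log axis, with points for means, bars for SD over 3 libraries and colours for roles. Hat1, Brd2 and Hdac1 are highest, and Hdac7 and Hdac9 lie under 0.1 CPM per kb.

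LPS changed the majority of the members within 2 hours, and in the same direction in both genotypes. In WT cells, 13 members rose and 18 fell past an adjusted p of 0.05 (quasi-likelihood test of edgeR, Benjamini-Hochberg adjustment over all genes). These are 64.6% of the 48, against 57.4% of all 16535 genes tested, of which 29.3% rose and 28% fell. In ACAT1 KO cells, 12 rose and 23 fell, 72.9% against a background of 60.7%, of which 29.5% rose and 31.2% fell. The libraries with LPS all lay above those without for 13 members in each genotype, and all below for 19 in WT and 26 in ACAT1 KO cells, where 61% and 67.8% of all genes did not overlap. The genotypes shared 12 risers and 18 fallers, so that 30 members were called in both genotypes with the same sign, 96.8% of the WT calls and 85.7% of the ACAT1 KO calls. That overlap was not counted over all genes, so it is not shown to be particular to the members. The median member moved by -0.12 on the log2 scale in WT cells and -0.18 in ACAT1 KO cells, where the median of all genes was -0.02 and -0.03.

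The balance of rising and falling calls depended on the scaling. With upper-quartile scaling the median of all genes itself shifted to -0.23 in WT and -0.17 in ACAT1 KO cells, and the calls became 9 higher and 30 lower in each genotype, 81.2% of the members. Of all genes, 21.9% rose and 40.4% fell in WT cells and 23.7% rose and 39.7% fell in ACAT1 KO cells under that scaling. The rises of Sirt2, Rcor1 and Brd9 in both genotypes and of Brpf1 in WT cells lost their call under that scaling, and no called member changed sign. Without the 3 libraries rich in antisense counts, only 1 unstimulated WT library is left, so calls of that fit are not given. No called member changed direction in it. In bulk RNA, fewer cells expressing a gene and less RNA per cell cannot be told apart.

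**Figure D2:**
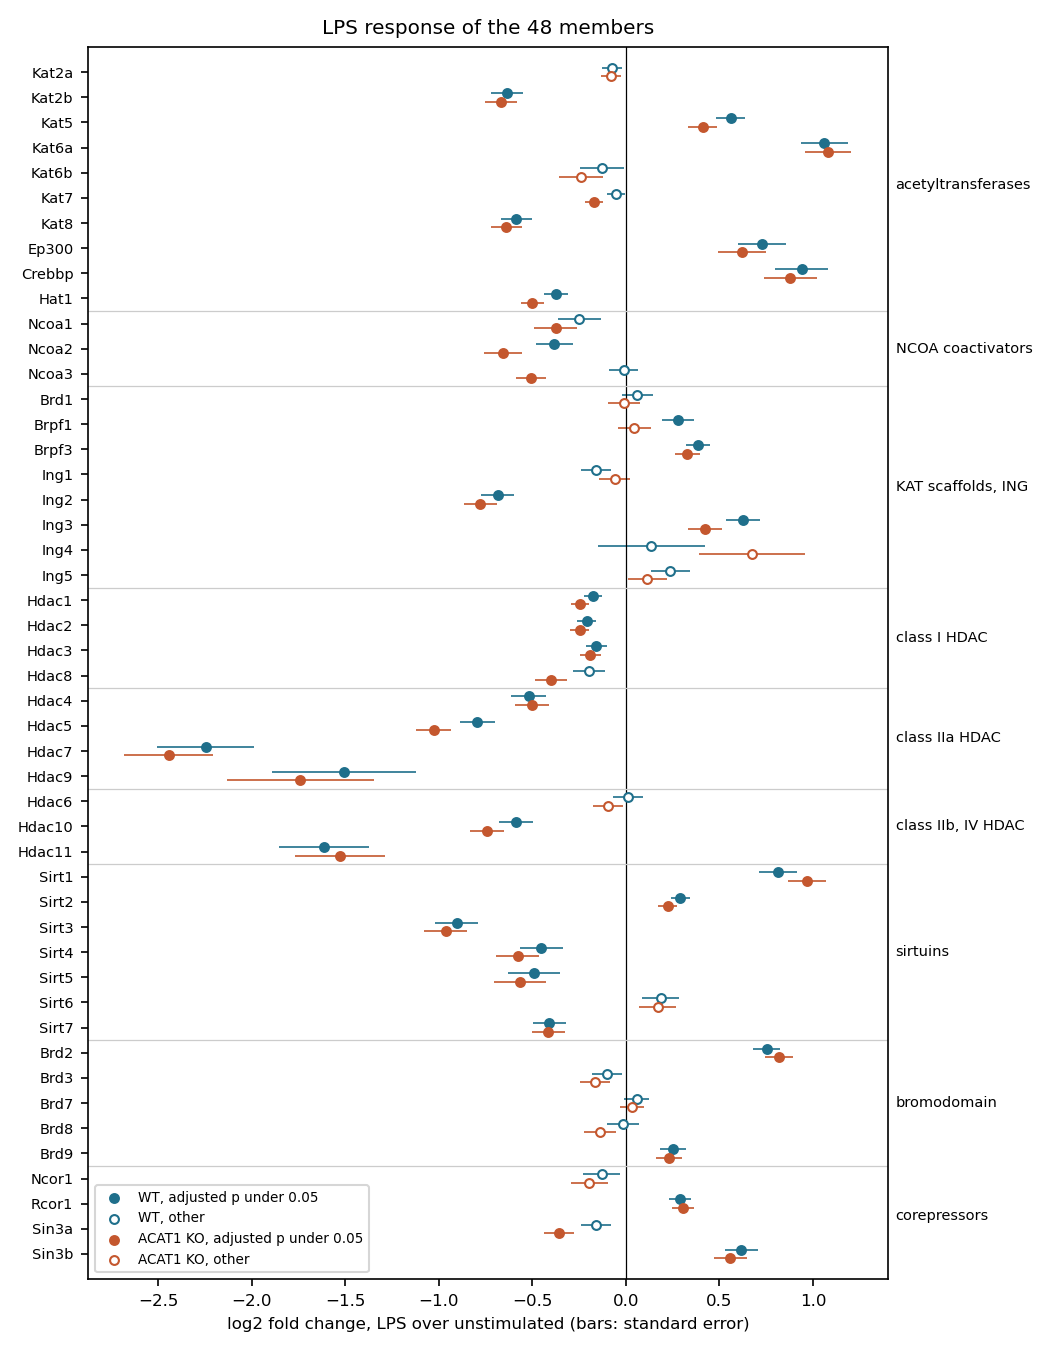
Log2 fold change of each member with LPS over no stimulation in WT (blue) and ACAT1 KO cells (orange), grouped by role, with bars for the standard error and filled points for an adjusted p under 0.05. All 4 class IIa deacetylases lie left of 0 in both genotypes, with Hdac7 at -2.25 and -2.44, while Kat6a lies furthest right at 1.06 and 1.08.

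The p300/CBP pair and the MYST acetyltransferase Kat6a rose, while several other writers fell. Of 10 acetyltransferases, Kat5, Kat6a, Ep300 and Crebbp rose in both genotypes, and Kat2b, Kat8 and Hat1 fell in both. Kat6a, also called MOZ, read 71.5, 79.8 and 58 CPM in unstimulated WT libraries and 144, 148 and 145 CPM with LPS, and 49.4, 66.9 and 55.1 and 118, 132 and 113 CPM in ACAT1 KO cells. Every LPS library was above every unstimulated library, by 1.06 (SE 0.124, adjusted p = 1.5e-05) in WT and 1.08 (SE 0.124, adjusted p = 1.18e-05) in ACAT1 KO cells on the log2 scale, where the SE is the fold change divided by the root of the F statistic. Kat6b, its paralog, was not called, at -0.13 (SE 0.118, adjusted p = 0.376) and -0.24 (SE 0.118, adjusted p = 0.0986). Crebbp rose by 0.94 (SE 0.142, adjusted p = 0.000121) and 0.88 (SE 0.142, adjusted p = 0.000188) and Ep300 by 0.73 (SE 0.129, adjusted p = 0.000434) and 0.62 (SE 0.129, adjusted p = 0.00126), without overlap between LPS and unstimulated libraries of a genotype.

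Kat5, the TIP60 acetyltransferase, was at 22.98, 25.96 and 26.7 CPM in unstimulated WT cells and 39.5, 38.8 and 33.2 CPM with LPS, and at 24.9, 24.5 and 24.9 and 33.5, 34.2 and 31.1 CPM in ACAT1 KO cells. Its log2 rise was 0.56 (SE 0.07903, adjusted p = 7.03e-05) in WT and 0.41 (SE 0.0788, adjusted p = 0.000717) in ACAT1 KO cells, with no overlap of libraries in either genotype, and 426 of its exon bases overlap Rnaseh2c on the opposite strand. Kat2b, or PCAF, moved the other way, from 53.7, 53.4 and 51.9 CPM to 29.2, 35.9 and 36.98 CPM in WT cells and from 55.9, 56.99 and 52.3 CPM to 32.4, 37.3 and 34.5 CPM in ACAT1 KO cells. That change was -0.64 (SE 0.0857, adjusted p = 4.75e-05) and -0.67 (SE 0.0856, adjusted p = 2.99e-05), again without overlap, whereas its paralog Kat2a was at -0.07 (SE 0.0533, adjusted p = 0.261) and -0.08 (SE 0.0533, adjusted p = 0.224) and was not called.

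Kat8, or MOF, which acetylates H4K16 in the MSL and NSL complexes, read 10.1, 9.86 and 11.1 CPM in unstimulated WT libraries and 7.301, 6.86 and 6.54 CPM with LPS, against 8.95, 8.25 and 8.596 and 5.55, 5.47 and 5.54 CPM in ACAT1 KO cells. The groups with LPS lay wholly below those without, at -0.59 (SE 0.0813, adjusted p = 6.12e-05) and -0.64 (SE 0.0815, adjusted p = 2.76e-05) on the log2 scale. Hat1 went from 122, 110.5 and 119 to 87.7, 95.7 and 88.4 CPM in WT cells and from 136, 129 and 143 to 93.98, 94.04 and 100.3 CPM in ACAT1 KO cells, a log2 change of -0.37 (SE 0.0626, adjusted p = 0.00028) and -0.50 (SE 0.0626, adjusted p = 2.36e-05). Kat7, the HBO1 enzyme, was called in ACAT1 KO cells at -0.17 (SE 0.0494, adjusted p = 0.0101) and stood at -0.05 (SE 0.0494, adjusted p = 0.391) in WT cells.

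Among the nuclear receptor coactivators, which recruit p300 and CBP, Ncoa2 fell in both genotypes, at -0.38 (SE 0.0996, adjusted p = 0.00579) in WT and -0.66 (SE 0.1001, adjusted p = 0.000119) in ACAT1 KO cells. Ncoa1 was at -0.25 (SE 0.114, adjusted p = 0.0812) and -0.37 (SE 0.115, adjusted p = 0.0141), and Ncoa3 at -0.01 (SE 0.0795, adjusted p = 0.905) and -0.51 (SE 0.0796, adjusted p = 0.000155), both past the threshold in ACAT1 KO cells and not in WT cells.

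The scaffolds and ING subunits split. Brpf3, a scaffold of the HBO1 and MOZ complexes, and Ing3, the H3K4me3 reader of the TIP60 complex, rose in both genotypes, at 0.62 (SE 0.0906, adjusted p = 8.71e-05) and 0.42 (SE 0.0902, adjusted p = 0.0015) for Ing3. Brpf1 was called in WT cells at 0.28 (SE 0.0878, adjusted p = 0.0172) and stood at 0.04 (SE 0.0877, adjusted p = 0.678) in ACAT1 KO cells. Ing2, a subunit of the SIN3 deacetylase complex, fell from 15.2, 13.4 and 15.2 CPM to 9.76, 8.85 and 8.69 CPM in WT cells and from 16.8, 14.1 and 14.7 CPM to 8.38, 9.27 and 8.94 CPM in ACAT1 KO cells. No LPS library reached the lowest unstimulated library, and the log2 change was -0.69 (SE 0.0896, adjusted p = 3.71e-05) and -0.78 (SE 0.0895, adjusted p = 1.18e-05). Ing1, its closest paralog, was not called, at -0.16 (SE 0.0809, adjusted p = 0.112) and -0.06 (SE 0.0807, adjusted p = 0.534), and Brd1, Ing4 and Ing5 were not called in either genotype.

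Class I deacetylases, which include the nuclear enzymes of the NuRD, SIN3, CoREST and NCoR complexes, fell little. Hdac1, Hdac2 and Hdac3 were called in both genotypes and Hdac8 in ACAT1 KO cells, with log2 changes of -0.21 to -0.16 in WT cells and -0.40 to -0.19 in ACAT1 KO cells over the 4 genes. Hdac1 was at -0.18 (SE 0.0483, adjusted p = 0.0076) and -0.24 (SE 0.0483, adjusted p = 0.000902), and the WT groups of Hdac1, 99.2 to 105.8 CPM with LPS and 113 to 118 CPM without, did not overlap.

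All 4 class IIa deacetylases fell in both genotypes, and their summed level went from 79.2 to 98.1 CPM in the unstimulated WT libraries to 53.1 to 57.7 CPM with LPS. In ACAT1 KO cells the sum went from 77.8 to 83.8 CPM to 43.8 to 45.6 CPM, with no overlap in either genotype. Hdac5 carried the larger part of the sum, at 57.7, 48.3 and 48.02 CPM in unstimulated WT cells and 32.5, 27.7 and 28.6 CPM with LPS, and at 49.9, 54.2 and 47.7 and 23.9, 26.9 and 23.6 CPM in ACAT1 KO cells. Its log2 change was -0.80 (SE 0.0929, adjusted p = 1.46e-05) in WT cells and -1.03 (SE 0.0932, adjusted p = 1.49e-06) in ACAT1 KO cells.

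Hdac7 made the largest fall on the log2 scale of any member, at low levels. It read 0.424, 0.503 and 0.332 CPM in unstimulated WT libraries and 0.0703, 0.0709 and 0.112 CPM with LPS, and 1.17, 1.21 and 0.925 and 0.209, 0.224 and 0.171 CPM in ACAT1 KO cells, with as few as 6 counts in a library. The libraries with and without LPS did not overlap, and the log2 change was -2.25 (SE 0.2601, adjusted p = 1.36e-05) and -2.44 (SE 0.237, adjusted p = 2.7e-06). Hdac9 read 0.467, 1.297 and 0.922 CPM in unstimulated WT libraries and 0.164, 0.456 and 0.317 CPM with LPS, and 0.847, 0.663 and 0.751 and 0.244, 0.2504 and 0.181 CPM in ACAT1 KO cells. In WT cells the lowest unstimulated library lay just above the highest with LPS, and the change was -1.51 (SE 0.384, adjusted p = 0.00519) and -1.74 (SE 0.392, adjusted p = 0.00221). Hdac4 fell in both genotypes, at -0.52 (SE 0.0917, adjusted p = 0.000402) and -0.50 (SE 0.0919, adjusted p = 0.000509), with 3536 of its 15813 exon bases under a noncoding gene on the opposite strand.

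Of the class IIb and IV deacetylases, Hdac10 and Hdac11 fell in both genotypes, and Hdac6, the tubulin deacetylase, was not called, at 0.01 (SE 0.0802, adjusted p = 0.924) and -0.10 (SE 0.0799, adjusted p = 0.315). Hdac10 went from 18.5, 19.6 and 17.3 CPM to 12.04, 13.4 and 11.4 CPM in WT cells and from 14.9, 14.4 and 17.7 CPM to 9.04, 9.41 and 9.61 CPM in ACAT1 KO cells. Those groups lay apart, and the change was -0.59 (SE 0.0919, adjusted p = 0.00016) and -0.74 (SE 0.0923, adjusted p = 2.21e-05). Hdac11, known as a repressor of Il10 in antigen-presenting cells, read 2.29, 2.24 and 2.17 CPM in unstimulated WT libraries and 0.773, 0.648 and 0.766 CPM with LPS, and 1.68, 2.27 and 2.22 and 0.4305, 0.787 and 0.914 CPM in ACAT1 KO cells. Its level with LPS was below every unstimulated library, at -1.61 (SE 0.242, adjusted p = 0.000112) and -1.53 (SE 0.241, adjusted p = 0.000158).

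The sirtuins divided by gene. Sirt1, the nuclear deacetylase of p53, FOXO and NF-kB p65, and Sirt2, the cytoplasmic tubulin deacetylase, rose. Sirt3, Sirt4 and Sirt5, the mitochondrial sirtuins, and Sirt7 of the nucleolus fell, and Sirt6 was not called, at 0.19 (SE 0.1002, adjusted p = 0.134) and 0.17 (SE 0.0998, adjusted p = 0.163). Sirt1 read 28.1, 32.5 and 34.8 CPM in unstimulated WT libraries and 54.6, 56.1 and 57.1 CPM with LPS, and 31.1, 30.3 and 29.6 and 61.3, 66.7 and 49.7 CPM in ACAT1 KO cells, without overlap. Its log2 rise was 0.81 (SE 0.102, adjusted p = 2.53e-05) and 0.97 (SE 0.102, adjusted p = 5.36e-06). Sirt3, the main deacetylase of the mitochondrial matrix, went from 6.46, 6.47 and 6.86 CPM to 4.08, 3.405 and 3.099 CPM in WT cells and from 5.54, 6.198 and 5.995 CPM to 3.17, 3.03 and 2.89 CPM in ACAT1 KO cells, with no overlap and 760 exon bases shared with opposite-strand genes. The change was -0.90 (SE 0.115, adjusted p = 2.92e-05) and -0.96 (SE 0.115, adjusted p = 1.6e-05), the largest fall of the 7 sirtuins in both genotypes.

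Brd2 and Brd9 rose among the 5 bromodomain readers, and Brd3, Brd7 and Brd8 were not called, with log2 changes from -0.17 to 0.06 over these 3 genes and both genotypes. Brd2 read 321, 319.5 and 282 CPM in unstimulated WT libraries and 553, 513 and 489 CPM with LPS, and 286, 282 and 290.4 and 543, 491 and 481 CPM in ACAT1 KO cells. The lowest LPS library was above the highest unstimulated library, and the rise was 0.75 (SE 0.0725, adjusted p = 2.83e-06) and 0.82 (SE 0.0725, adjusted p = 1.2e-06), with the smallest p of any member in either genotype. Its paralog Brd3 stood at -0.10 (SE 0.0796, adjusted p = 0.297) and -0.17 (SE 0.0794, adjusted p = 0.0912). Brd9, the reader of the noncanonical BAF complex, rose by 0.25 (SE 0.0688, adjusted p = 0.00796) and 0.23 (SE 0.0687, adjusted p = 0.0127).

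Of the corepressors, Sin3b and Rcor1, the CoREST scaffold, rose in both genotypes, Sin3a fell past the threshold in ACAT1 KO cells, and Ncor1 was not called. Sin3b was at 0.62 (SE 0.08903, adjusted p = 8.42e-05) and 0.56 (SE 0.0888, adjusted p = 0.000169), while its paralog Sin3a was at -0.16 (SE 0.0791, adjusted p = 0.107) and -0.36 (SE 0.0792, adjusted p = 0.00202).

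**Figure D3:**
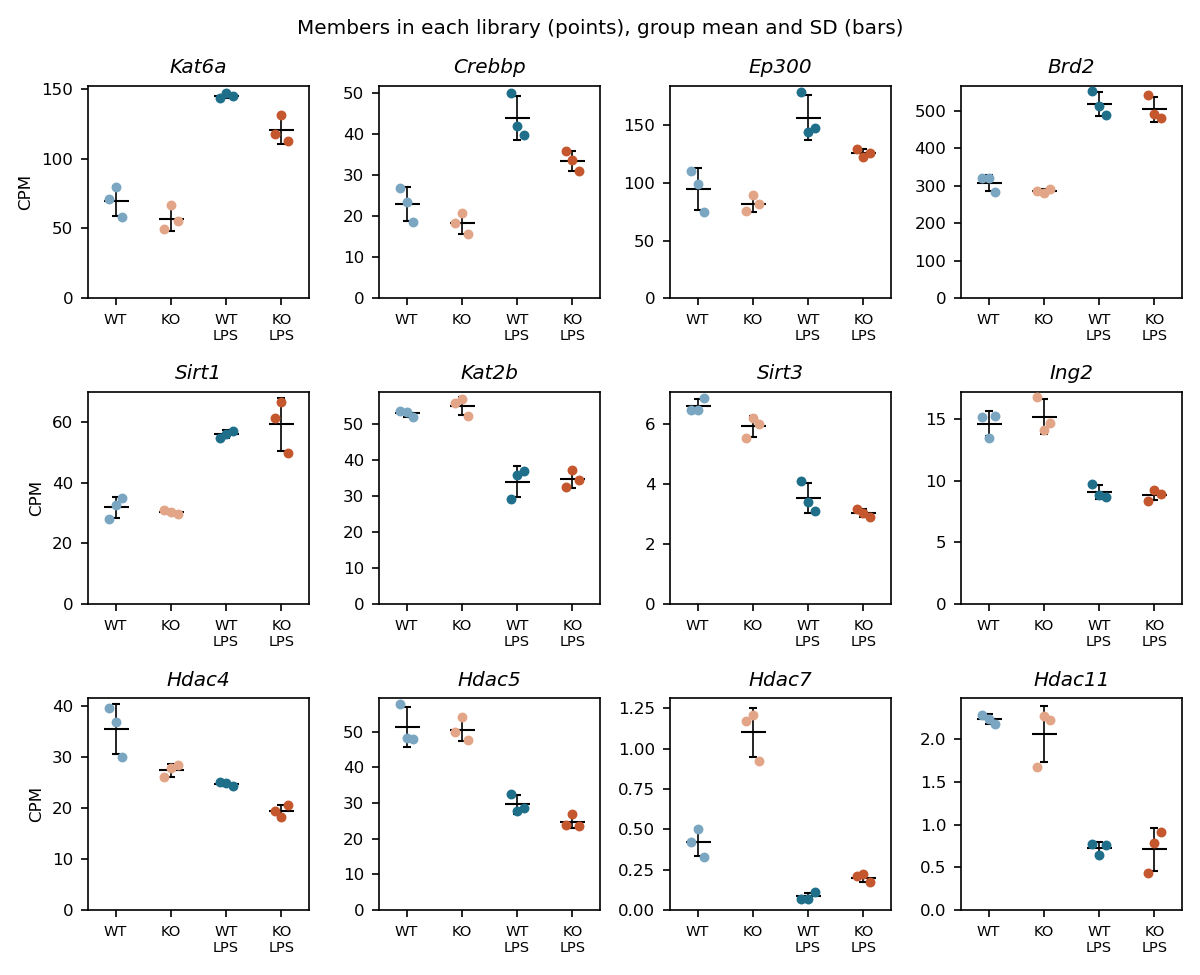
CPM of 12 members in each library (points) with group means and SD (black bars) on linear axes from 0, for WT and ACAT1 KO cells without and with LPS. Kat6a, Crebbp, Ep300, Brd2 and Sirt1 are higher with LPS, and Kat2b, Sirt3, Ing2, Hdac4, Hdac5, Hdac7 and Hdac11 are lower, with no overlap within a genotype.

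Whether the genotypes responded differently was tested as the interaction of genotype and LPS. No member passed in edgeR's quasi-likelihood test, where 0.187% of all genes did, and 1 member had an unadjusted p under 0.05, against 8.92% of all genes. DESeq2 called 1 member, 2.17% of those tested against 2.78% of all genes. That gene was Ncoa3, at chr2:165992636-166073242 on GRCm38, a coactivator of nuclear receptors and NF-kB. It read 148, 164 and 144 CPM in unstimulated WT libraries, 163, 142 and 148 CPM in WT with LPS, 170.2, 202 and 179 CPM in unstimulated ACAT1 KO libraries and 126, 135 and 127 CPM in ACAT1 KO with LPS. ACAT1 KO libraries thus lay above all WT libraries without LPS and below all of them with it, and the interaction was -0.49 (SE 0.112, adjusted p = 0.115). Ncoa3 lies on chromosome 2 beyond 90 Mb, where the median genotype difference of all genes was 0.29 without LPS and 0.28 after it, and its own differences were 0.28 and -0.20, neither of them called. The part of that regional shift in its values was not tested. The interaction of Ncoa3 had an adjusted p of 0.00498 in DESeq2 and 0.0543 with the replicate number as a block. With that block and a term for the antisense-rich libraries it was 0.0258, and it reached 0.280 when libraries were left out in turn.

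Ncoa2 and Brpf1 had the next smallest p, with interactions of -0.27 (SE 0.141, adjusted p = 0.632) and -0.23 (SE 0.124, adjusted p = 0.646). Of the 48 members, 40 had an interaction below 0, meaning a response that was lower in ACAT1 KO than in WT cells, with a median of -0.07. Over all genes, 9697 of 16535 were below 0, with a median of -0.04. Under upper-quartile scaling, 29 members were below 0, with a median of -0.01. That scaling shifts all genes as well, so this count does not show a change of the members relative to all genes.

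The promoter sequences of the members show which short motifs lie at their starts. Windows from 250 bases before to 50 bases after each RefSeq start on GRCm38.p6 were available for 41 members. The NF-kB core GGANTTTCC, searched on both strands, was in none of the 41 and in 1.45% of all 27025 genes, which says only that these letters are not in the windows. The AP-1 motif TGANTCA was in Hdac7, Hdac9, Kat2b and Kat8, 9.76% of members against 8.97% of all genes. It was in 4 of 14 members with a window that fell with LPS in both genotypes, 0 of 11 that rose and 0 of 16 others. A link between motif and response was not tested. The 4 matches are shown with 11 or fewer bases on each side and the motif in capitals, on the strand of the gene.
Hdac7, chr15:97814824-97814852, minus strand: agctgagcagcTGAGTCActcagtagctg
Hdac9, chr12:34528929-34528957, minus strand: catgctgttgtTGATTCAtatgcaaatgg
Kat2b, chr17:53566721-53566748, plus strand: cacacaccatTGAGTCAtctccctccct
Kat8, chr7:127912830-127912858, plus strand: ggccagggtggTGACTCAggtaagaaggc

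The Hdac7 match begins 22 bases after an annotated start, and those of Hdac9, Kat2b and Kat8 begin 57, 240 and 173 bases before one, and all 4 of these starts lie inside the gene as annotated in GENCODE M21. The ETS motif CCGGAAG was in 12 of 41 members, 29.3% against 9.93% of all genes. It was in 3 of 11 risers with a window, 4 of 14 fallers and 5 of 16 others. The SP1 motif GGGCGG was in 85.4% of members against 38.2% of all genes. For every motif a gene counted if any of its windows matched. The 41 members have 61 windows, and all 27025 genes have 32851. Those genes were not limited to the ones expressed in these cells, so the shares compare unlike sets. The CRE motif TGACGTCA was in Ing3 and Ing4, 4.88% of members and 2.03% of all genes. Examples of ETS and CRE matches in members that rose and fell follow.
Brd2 (rose), ETS, chr17:34122793-34122821, minus strand: tcagaccggagCCGGAAGaacctattccc
Brd9 (rose), ETS, chr13:73937787-73937815, plus strand: cccaccctgacCCGGAAGcacttggcggt
Ing3 (rose), CRE, chr6:21949515-21949544, plus strand: caccggccggtTGACGTCAtcgctgcagac
Hat1 (fell), ETS on the opposite strand, chr2:71389222-71389250, plus strand: ccttgcggtcaCTTCCGGcccgggagcgc
Sirt3 (fell), ETS on the opposite strand, chr7:140882377-140882405, minus strand: gtgctcgctcaCTTCCGGcaccgcgggcg

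The 250 bases before a start are shown in full for Brd2, the riser with the smallest p, and for Kat2b, a faller among the acetyltransferases, with ETS and AP-1 matches in capitals. They differ in base composition, at 72.3 and 47% GC over the 300-base windows.
Brd2, chr17:34122608-34122857, minus strand: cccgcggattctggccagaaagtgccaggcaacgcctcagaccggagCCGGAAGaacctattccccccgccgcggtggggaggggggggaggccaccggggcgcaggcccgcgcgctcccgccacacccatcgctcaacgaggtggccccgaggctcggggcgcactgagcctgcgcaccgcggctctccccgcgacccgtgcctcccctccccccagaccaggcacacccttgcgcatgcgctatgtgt
Kat2b, chr17:53566721-53566970, plus strand: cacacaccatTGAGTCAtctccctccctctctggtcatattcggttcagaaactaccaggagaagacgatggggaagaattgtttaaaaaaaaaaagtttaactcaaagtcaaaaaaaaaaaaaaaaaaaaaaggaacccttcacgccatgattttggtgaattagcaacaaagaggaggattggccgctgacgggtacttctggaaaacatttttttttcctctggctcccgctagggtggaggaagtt

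The genotypes were then compared within each state. Without LPS, 2 of the 48 members passed, 4.17% against 1.91% of all 16440 genes tested (0.742% higher and 1.17% lower), with Hdac7 higher and Ncoa1 lower in ACAT1 KO cells. The median member difference was -0.02 on the log2 scale, and that of all genes was 0.00353. For 12 members the libraries of the genotypes did not overlap, 4 higher and 8 lower in ACAT1 KO cells, and over all genes this held for 25.5%.

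Hdac7 (chr15:97792664-97844502) was at 0.424, 0.503 and 0.332 CPM in WT libraries and 1.17, 1.21 and 0.925 CPM in ACAT1 KO libraries, and the groups were apart. The log2 difference was 1.40 (SE 0.233, adjusted p = 0.0441). Ncoa1 (chr12:4247362-4477182) was at 26.8, 24.6 and 19.8 CPM in WT libraries and 15.4, 15.4 and 14.1 CPM in ACAT1 KO libraries, with the lowest WT library above the highest ACAT1 KO library, and a difference of -0.65 (SE 0.117, adjusted p = 0.0478). Rcor1 (chr12:111039351-111115901) was closest to the threshold among the rest, with 61.96, 62.5 and 54.5 CPM in WT and 43.6, 46.95 and 44.7 CPM in ACAT1 KO libraries, no overlap, and -0.39 (SE 0.0725, adjusted p = 0.0522). Neither call held in every alternative. Without the 3 antisense-rich libraries, WT 3 was the only WT library left, so calls of that fit are not given. There the mean of ACAT1 KO 1 and 3 less WT 3 was 1.62 for Hdac7 and -0.43 for Ncoa1 on the log2 scale. Without WT 1, WT 2, ACAT1 KO 1, 2 or 3 no member passed, and 0.0414 to 0.201% of all genes did. With so few genes called, 0 of 48 says little about the members. Without WT 3 there were 3 lower and 0 higher, 6.25% against 3.18% of all genes. Rcor1 and Ncoa1 lie on chromosome 12, where the median difference of all 585 genes tested was -0.26, against 0.00220 outside it and the end of chromosome 2, and the part of this in their differences was not tested.

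The best-known writers and erasers were not called between the unstimulated genotypes. The class I deacetylases lay between -0.02 and 0.07, with SE from 0.0540 to 0.103. Ep300 was at -0.20 (SE 0.146, adjusted p = 0.517), Crebbp at -0.32 (SE 0.159, adjusted p = 0.325), Kat2a at 0.03 (SE 0.05799, adjusted p = 0.85) and Sirt1 at -0.06 (SE 0.0868, adjusted p = 0.766), none of them called.

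After LPS, 12 members passed, 25.0% against 15.1% of all 16483 genes tested, with 1 higher in ACAT1 KO cells (background 5.93%) and 11 lower (background 9.12%). The median member difference was -0.11, and that of all genes was -0.00409. Libraries of the genotypes did not overlap for 23 members, 4 higher and 19 lower in ACAT1 KO cells, with 37.8% over all genes. The 11 that were lower comprised 4 acetyltransferases (Kat6a, Kat6b, Kat8 and Crebbp), the coactivators Ncoa1 and Ncoa2, the scaffold Brpf1, the deacetylases Hdac4 and Hdac10, and the corepressors Rcor1 and Sin3a. No class I deacetylase, sirtuin or bromodomain reader passed. The 8 LPS response genes summed to 6431 to 8243 CPM in WT and 8832 to 12080 CPM in ACAT1 KO libraries with LPS. These sums did not overlap. Tnf, Il1b, Il6, Cxcl2, Cxcl10 and Ifnb1 had higher means in ACAT1 KO cells. Nfkbia (1003 CPM in WT, 983.8 CPM in ACAT1 KO) and Ptgs2 (533.2 and 483.5 CPM) had lower means. Cxcl10 overlapped, at 2502 to 3710 CPM in WT and 3529 to 4384 CPM in ACAT1 KO cells. The part of these shifts in the members' differences was not tested.

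The coactivators Ncoa1 and Ncoa2 and the corepressor Rcor1 had the smallest p of the 12. Ncoa1 was at 22.8, 19.4 and 17.7 CPM in WT libraries with LPS and 10.96, 11.7 and 11.98 CPM in ACAT1 KO libraries, with no overlap and a difference of -0.77 (SE 0.1, adjusted p = 0.00447). Ncoa2 (chr1:13139105-13374083) was at 45.6, 44.2 and 41.98 CPM in WT and 27.7, 28.2 and 32.8 CPM in ACAT1 KO libraries, again without overlap, at -0.55 (SE 0.0803, adjusted p = 0.00647). Rcor1, with 74.03, 73.1 and 71.3 CPM in WT and 56.1, 55.4 and 55.9 CPM in ACAT1 KO libraries, differed by -0.36 (SE 0.0489, adjusted p = 0.00485), and its libraries were close to each other within each genotype. These 3 genes passed in each of the 16 alternatives run for this comparison. On chromosome 12, where Ncoa1 and Rcor1 lie, the median difference after LPS was -0.28 and 43.2% of genes passed. Outside chromosome 12 and the end of chromosome 2, 10 of 44 members passed, 22.7% against 12.9% of the genes there.

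Sin3a, scaffold of the SIN3 deacetylase complex, was at 59.7, 61.6 and 54.5 CPM in WT and 42.3, 47.5 and 45.4 CPM in ACAT1 KO libraries, apart, at -0.36 (SE 0.0694, adjusted p = 0.0156). Hdac4 was at 25, 24.8 and 24.3 CPM in WT and 19.4, 18.2 and 20.5 CPM in ACAT1 KO libraries, at -0.33 (SE 0.0664, adjusted p = 0.0174). The WT libraries of Hdac4 were nearly equal and all above those of ACAT1 KO cells. Hdac10, which deacetylates polyamines, was at 12.04, 13.4 and 11.4 CPM in WT and 9.04, 9.41 and 9.61 CPM in ACAT1 KO libraries, without overlap, at -0.37 (SE 0.0829, adjusted p = 0.0244). Hdac7 remained higher in ACAT1 KO cells, at 0.209, 0.224 and 0.171 CPM against 0.0703, 0.0709 and 0.112 CPM in WT libraries, none overlapping, at 1.20 (SE 0.291, adjusted p = 0.0306).

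Among the acetyltransferases, Kat6b was at 7.55, 8.24 and 8.02 CPM in WT and 6.34, 6.45 and 5.67 CPM in ACAT1 KO libraries with LPS, at -0.35 (SE 0.0872, adjusted p = 0.0344). Kat6a was at 144, 148 and 145 CPM in WT and 118, 132 and 113 CPM in ACAT1 KO libraries, at -0.25 (SE 0.0639, adjusted p = 0.0364). Crebbp was at 50, 41.97 and 39.7 CPM in WT and 35.8, 33.7 and 30.9 CPM in ACAT1 KO libraries, at -0.37 (SE 0.0955, adjusted p = 0.0373). In these 3 genes all ACAT1 KO libraries were below all WT libraries. Ep300, with 179, 144 and 147 CPM in WT and 129.7, 123 and 126 CPM in ACAT1 KO libraries, also did not overlap and missed the threshold, at -0.29 (SE 0.0856, adjusted p = 0.0561). Brpf1 and Kat8 were the weakest calls, at -0.29 (SE 0.08203, adjusted p = 0.0474) and -0.30 (SE 0.08396, adjusted p = 0.0484).

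**Figure D4:**
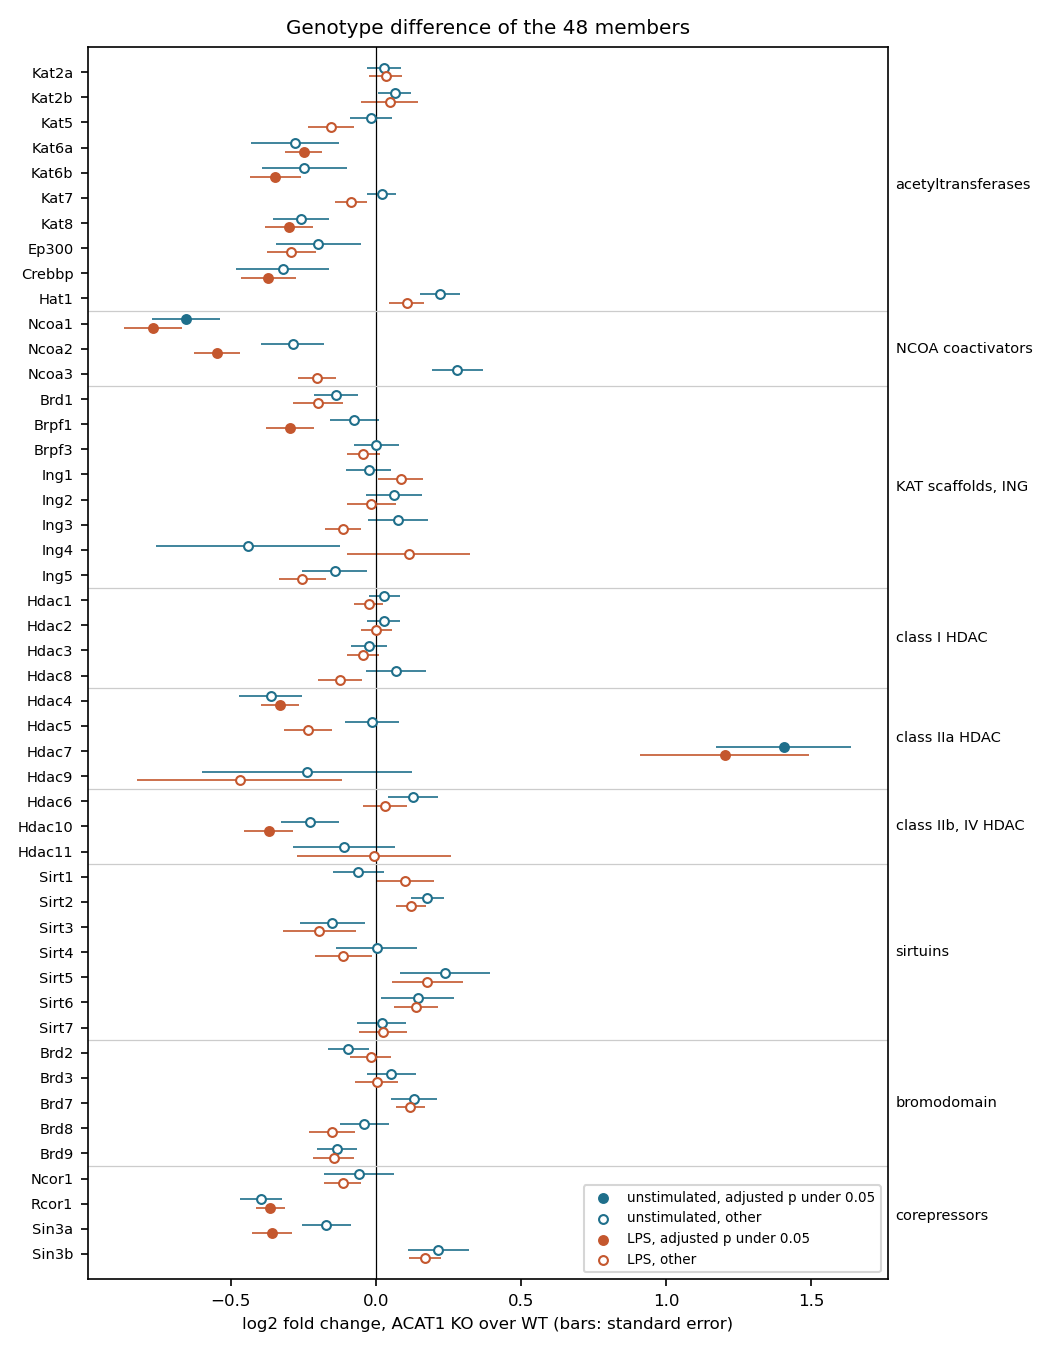
Log2 difference of each member, ACAT1 KO over WT, without LPS (blue) and after LPS (orange), grouped by role, with bars for the standard error and filled points for an adjusted p under 0.05. Hdac7 lies right of 1 in both states, Ncoa1 is lowest in both, and class I deacetylases and bromodomain readers stay between -0.15 and 0.13.

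Long transcripts made up much of the lower group. The members have a median merged exon length of 5610 bases, and the 11 lower members one of 8576 bases, 8 of them above the member median. Over all genes, those lower in ACAT1 KO cells had a median of 5647 bases and those higher 3197 bases, against 3486 bases for all genes tested. With offsets for length and GC content in the same test, 7 members passed after LPS, 2 higher and 5 lower, and the member median moved from -0.11 to -0.03. These 7 are 14.6% of the members against 13.2% of all genes under the same offsets, so the members' share was then near the background. Ncoa1, Ncoa2, Rcor1, Sin3a and Hdac10 stayed lower and Hdac7 higher under these offsets, and Sin3b was added as higher, at 0.27 (adjusted p = 0.0224). Kat6a, Kat6b, Crebbp, Hdac4, Brpf1 and Kat8 no longer passed, with differences of -0.28 to -0.15 and adjusted p from 0.0597 to 0.159. Single libraries also mattered here, since 3 members passed without WT 2 or ACAT1 KO 1, 4 without ACAT1 KO 3, 5 without ACAT1 KO 2, 8 without WT 1 and 10 without WT 3. Over all genes, 5.18 to 13.3% passed in those fits.

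**Figure D5:**
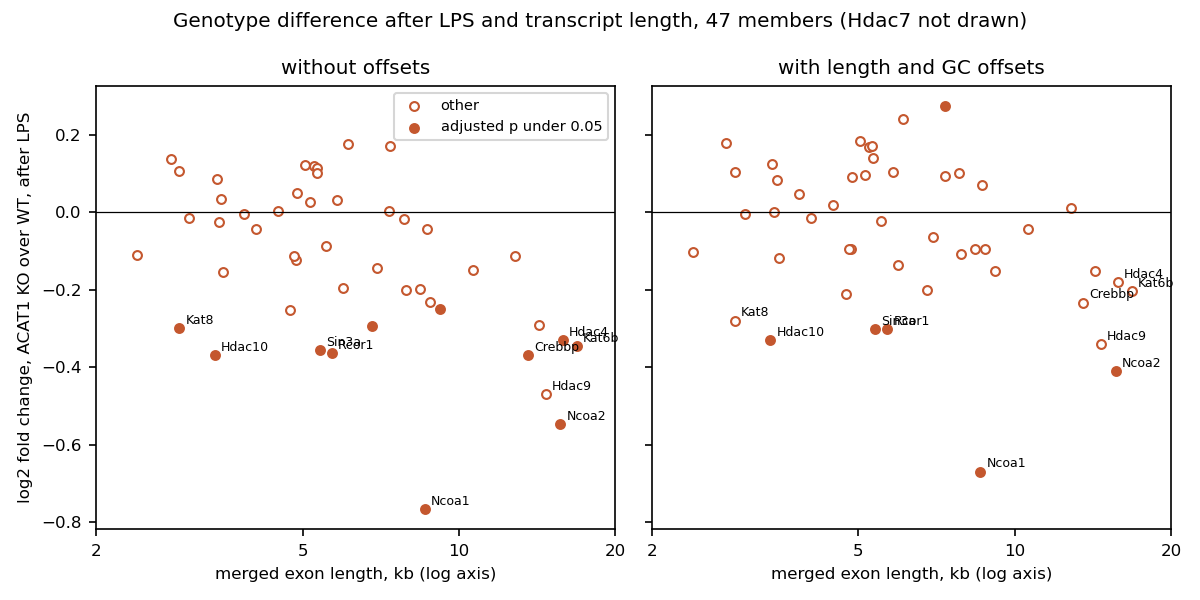
Log2 difference after LPS, ACAT1 KO over WT, against merged exon length in kb on a log axis, for 47 members without (left) and with (right) offsets for length and GC content, filled where the adjusted p is under 0.05. Ncoa1, Ncoa2, Rcor1, Sin3a and Hdac10 are filled in both panels, and the long genes Kat6b, Hdac4 and Crebbp are filled in the left panel and open in the right.

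The other 107 acetylation genes tested, partners of the members in SAGA, TIP60, NuRD, SIN3, NCoR and CoREST complexes and further readers, were counted the same way. With LPS, 52 rose and 33 fell in WT cells and 48 rose and 37 fell in ACAT1 KO cells, 79.4% in each against 57.4 and 60.7% of all genes, and none passed for the interaction in edgeR, where 3 higher and 9 lower genes had an unadjusted p under 0.05. Sp140, a bromodomain reader of immune cells, read 42.4, 38.6 and 43.99 CPM in unstimulated WT libraries and 247, 297 and 339.7 CPM with LPS, at 2.82 (SE 0.105, adjusted p = 1.44e-09) in WT and 3.22 (SE 0.107, adjusted p = 5.09e-10) in ACAT1 KO cells. Its relative Sp110 rose by 2.53 (SE 0.118, adjusted p = 6.37e-09) in ACAT1 KO cells. Jade1, a scaffold of the HBO1 complex, fell from 76.3, 84.3 and 89.04 CPM to 21.7, 24.1 and 22.1 CPM in WT cells, at -1.88 (SE 0.0812, adjusted p = 4.48e-09) and -2.07 (SE 0.0817, adjusted p = 1.8e-09), and Supt7l of SAGA rose by 1.10 (SE 0.0571, adjusted p = 1.81e-08) in WT cells.

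Between genotypes, 2 of these genes were higher and 3 lower without LPS, and 5 were higher and 27 lower after it, 4.67 and 29.9% of the 107, against 1.91 and 15.1% of all genes. These shares were counted without the length and GC offsets, and the part of transcript length in them was not tested. Chd3, a helicase of NuRD, was at 226, 221 and 182 CPM in unstimulated WT libraries and 80.6, 54.9 and 75.96 CPM in ACAT1 KO libraries, and at 154, 151 and 156 and 64.2, 42.8 and 54.5 CPM with LPS. Those libraries were far apart in both states, at -1.56 (SE 0.157, adjusted p = 0.0162) and -1.49 (SE 0.129, adjusted p = 0.00145). Sap30, a SIN3 subunit, was higher without LPS at 0.53 (SE 0.0729, adjusted p = 0.0368), and Atad2b, a bromodomain ATPase, lower at -0.49 (SE 0.0831, adjusted p = 0.0442). After LPS, Baz2a of the nucleolar remodelling complex and Atad2b were lower, at -0.54 (SE 0.0541, adjusted p = 0.00247) and -0.58 (SE 0.0742, adjusted p = 0.00417). The positions of these other genes were not set against the shifts on chromosome 12 and the end of chromosome 2, so their part was not tested.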

How the data were processed

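RNA-seq counts of 12 libraries were analysed, and the labels gave each library's genotype, treatment and number. Upstream, reads from a directional kit went through Trimmomatic 0.33, HISAT2 on GRCm38 and StringTie. What the authors deposited for each state are raw whole-number counts by gene. Whether those counts used the strand of the reads is not given in the sources used here. Reads of overlapping genes are therefore uncertain, and 16 members overlap exons on the opposite strand and 6 on the same strand. The tables also hold the authors' own log2 values (12 columns, 1 per library), log2 fold changes, p-values and scores, which the authors deposited beside the counts and which were not used here.

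Repeated entries of a gene were removed, leaving 17544 genes for unstimulated cells and 17874 after LPS. Low genes were removed by filterByExpr, libraries were scaled by TMM, and edgeR 4.0.16 in R 4.3.3 gave two-sided quasi-likelihood tests with Benjamini-Hochberg adjustment over all genes tested. Genotypes were compared within each state in 6 libraries. LPS responses and the interaction came from a 4-group fit of all 12 libraries over 16535 genes. CPM used the 12-library TMM factors. Exact permutation of 3 against 3 libraries cannot go below a p of 0.1, so no such test was used for single genes. Exon lengths and coordinates are from GENCODE M21, and promoters from RefSeq. No library copied another, since chi-square over degrees of freedom was 34.1 to 287 within groups. The scripts were tested on simulated data.

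Alternatives were RLE and upper-quartile scaling, DESeq2 1.42.0, limma-voom (limma 3.58.1), other filters on low counts, a replicate block, offsets for exon length and GC content, a term for the antisense-rich libraries, all 12 libraries in 1 fit, and leaving out each library. For the LPS responses and the interaction, the term for the antisense-rich libraries was fitted together with the replicate block. Leaving out the 3 antisense-rich libraries and the members on chromosome 12 or on chromosome 2 from 90 Mb was chosen after seeing the data. Deviations from the group means of unstimulated and LPS libraries with the same number correlated at 0.0913 to 0.307 across 16535 genes. Across 10953 genes with at least 1 CPM in every library, a check also chosen after seeing the data, they correlated at 0.333 to 0.585, and those of different numbers at -0.381 to -0.0485. Genes are not independent replicates. The labels do not state that a number marks a line, so the block remained an alternative.

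The members, the other gene lists and the rule for named genes were chosen with earlier results of these data known. Per comparison, every library is given for up to 10 called members with the smallest p and for those with an absolute log2 fold change of at least 1, or for the 3 smallest p where fewer passed. Of the other acetylation genes, up to 3 per comparison are named, and some genes under that rule are not reported here.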

Additional observations from a re-analysis of the deposited data

How the results depend on the processing

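Among the members, 1713 of 1830 recomputed values kept their direction and side of the threshold, 109 lost the threshold, 8 gained it and none reversed. The LPS responses stayed within 1.5 times their counts of 31 and 35 under every alternative run. The 2 calls between unstimulated genotypes were not stable. They became 1 with upper-quartile scaling (2.08% against 1.86% of all genes), limma-voom (2.08% against 1.75%) or outside chromosome 12 and distal chromosome 2 (2.27% against 1.36%). They became 4 with a term for library class or all 12 libraries (8.33%, against 4.04 and 8.18% of all genes) and 6 with DESeq2 (12.5% against 12.4%). No member passed with length and GC offsets (1.08% of all genes), with the replicate block (0.918%), or with both (0.991%). Without the antisense-rich libraries only WT 3 was left of the WT libraries, so calls of that fit are not given. Leaving out WT 3 gave 3 (6.25% against 3.18% of all genes). Leaving out any other library gave 0, where 0.0414 to 0.201% of all genes passed. After LPS, the 12 calls became 7 with length and GC offsets (14.6% against 13.2% of all genes). They became 5 with these and the replicate block (10.4% against 12.3%). Leaving out a library gave 3 to 10 (6.25 to 20.8% against 5.18 to 13.3% of all genes), the fewest without WT 2 or ACAT1 KO 1. The interaction gave 1 member in DESeq2 (Ncoa3). A term for library class fitted with the replicate block gave 2 (Ncoa2 and Ncoa3, where 2.76% of all genes passed). The other alternatives with at least 2 libraries in each group gave 0, the replicate block alone included. The term for library class has no counterpart for the genotypes after LPS, where no library is antisense-rich, and was not run there. The causes were not tested. Fits that left out a library also had fewer libraries.

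The replicate block gave 9 calls between genotypes after LPS, 18.8% against 13.5% of all genes. It gave 36 and 38 for LPS in WT and ACAT1 KO cells, 75 and 79.2% against 62 and 64.8% of all genes. Numbers are not shared lines across genotypes. The median of the members in unstimulated WT cells was 6.41 CPM per kb with TMM and 7.11 without it. Counts as low as 6 for Hdac7, 14 for Hdac9, 37 for Hdac11 and 48 for Ing4 limit the precision of these members, and counting error was not separated from the spread between libraries.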
